A study of Mus musculus with 9 samples.

Results

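The integrated stress response and the unfolded protein response were followed across 42 genes after knockdown of Brg1 in RN2, a cultured line of mouse acute myeloid leukaemia. The genes were taken as every probe set whose platform annotation gave 1 gene symbol that was on the list of members, which found all 42 genes in 43 probe sets among 34760 (Pdia4 had 2, and Selk was matched through its current symbol, Selenok). They made up 20 Atf4-linked genes and 22 genes of the endoplasmic reticulum (ER), out of 19937 genes tested. For Pdia4 the brighter probe set is used.

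RN2 cells carry the MLL-AF9 fusion and activated NrasG12D, and here also TRMPV, a vector from which doxycycline switches on a short hairpin RNA. Hairpins Brg1sh_3232, Brg1sh_3364 and Brg1sh_4935 against Brg1 (gene Smarca4, an ATPase of SWI/SNF chromatin remodelling complexes) had 2 arrays each, and the control hairpin Rluc, against a Renilla luciferase that mouse cells lack, had 3 arrays. All 4 groups received 1 ug/ml doxycycline for 96 h, so the drug was not varied. The labels name the cell line of the Rluc arrays with an added term, TtTMPV, that the hairpin arrays do not carry, and this difference in name cannot be told apart from the knockdown. Whether replicate arrays stem from separate cultures is not stated. The p-values therefore rest on the spread among these arrays alone, and that spread may be technical. In bulk RNA, fewer cells of a type and less RNA per cell cannot be told apart.

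Expression is given as the log2 value per probe set, 1 unit being a doubling. Smarca4 averaged 10.77 ± 0.08 (SD, n = 6) in the hairpin arrays, which spanned 10.67 to 10.90, and had 11.79, 11.77 and 11.79 in the Rluc arrays, a fall of 1.01 on the log2 scale in the mean of the hairpins. Correlations between arrays were 0.996 to 0.997 within a group and 0.989 to 0.994 between a hairpin and Rluc. The 12 myeloid markers lay between the 67.0 and 99.6 percentile of mean level among all genes, the 3 erythroid markers between 38.1 and 42.8 and the 4 lymphoid markers between 9.39 and 38.5. Of the myeloid markers 5 were higher and 4 lower in the mean of the hairpins, beside 13.3% and 15% of all genes. Among them were Mpo (-0.87), Cebpa (-0.61) and Itgam (0.40). Of the 5 stromal or epithelial markers, between 26.2 and 68.7, only Pdgfrb was called in the mean of the hairpins (0.39). The highest log2 difference among these 5 was 0.84 with Brg1sh_3232 and 0.41 with Brg1sh_4935, but 0.04 with Brg1sh_3364. None of the erythroid or lymphoid markers was called in the mean of the hairpins, and the part of these marker changes in the results below was not tested.

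Cells that lack amino acids, haem or folding capacity in the ER phosphorylate the initiation factor eIF2, which lowers protein synthesis as a whole while favouring translation of the Atf4 mRNA. Atf4 protein then switches on genes for amino acid uptake and synthesis, for further transcription factors and for feedback that restores translation. Misfolded proteins in the ER also act through the sensors Ern1 (IRE1), which splices the Xbp1 mRNA, and Atf6, and these raise chaperones, disulphide isomerases and the machinery of ER-associated degradation. Arrays read RNA abundance, so neither the translation of Atf4 nor the splicing of Xbp1 was measured.

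Promoters of both branches carry known binding elements. The ER stress element (CCAAT, 9 bases of any kind, then CCACG) is bound by Atf6 and Xbp1 together with NF-Y, and the C/EBP-ATF element TGATGNAA is bound by Atf4 and its partners. The windows of 250 bases before the start, from RefSeq on GRCm38.p6, were searched on both strands. Of all 32851 windows, 0.113% (37) held the ER stress element, 3.45% (1134) held TGATGNAA and 28.3% held CCACG alone, which lies inside the ER stress element and so overlaps it. Among ER members 19 of 22 had a window and 8 of these held the ER stress element: Calr, Canx, Creld2, Dnajc3, Hsp90b1, Hspa5, Pdia6 and Syvn1. Among Atf4-linked members 17 of 20 had a window, in 20 windows, of which 0 held the ER stress element and 6 held TGATGNAA, those of Asns, Atf3, Chac1, Nupr1, Slc7a11 and Vldlr. One ER member, Herpud1, held TGATGNAA. A match describes the letters and is no evidence of binding here.

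Windows of the members that were lower with the hairpins are shown where they held an element, up to 3 for each element by smallest p. The ER stress element is in capitals in Pdia6 (chr12:17266339-17266588, plus strand, element 79 bases before the start), in Creld2 (chr15:88819396-88819645, plus strand, 107 bases before, element on the opposite strand) and in Hspa5 (chr2:34771840-34772089, plus strand, 46 bases before). The C/EBP-ATF element is in capitals in Nupr1 (chr7:126625471-126625720, minus strand, 102 bases before, on the opposite strand) and in Asns (chr6:7693210-7693459, minus strand, 15 bases before). Each is written 5' to 3' along its gene.
Pdia6: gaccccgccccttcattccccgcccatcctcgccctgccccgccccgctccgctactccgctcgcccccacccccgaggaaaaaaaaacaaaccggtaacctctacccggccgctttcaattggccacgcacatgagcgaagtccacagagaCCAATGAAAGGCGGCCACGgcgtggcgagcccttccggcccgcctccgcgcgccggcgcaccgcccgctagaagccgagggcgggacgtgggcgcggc
Creld2: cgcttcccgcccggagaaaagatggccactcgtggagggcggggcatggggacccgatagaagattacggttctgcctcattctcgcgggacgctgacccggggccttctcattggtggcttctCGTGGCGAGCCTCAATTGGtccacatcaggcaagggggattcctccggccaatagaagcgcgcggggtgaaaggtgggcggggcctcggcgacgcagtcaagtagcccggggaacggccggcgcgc
Hspa5: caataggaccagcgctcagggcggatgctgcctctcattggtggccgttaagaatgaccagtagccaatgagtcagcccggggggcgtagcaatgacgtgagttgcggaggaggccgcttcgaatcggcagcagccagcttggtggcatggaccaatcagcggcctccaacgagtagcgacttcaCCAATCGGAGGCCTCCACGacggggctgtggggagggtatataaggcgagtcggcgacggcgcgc
Nupr1: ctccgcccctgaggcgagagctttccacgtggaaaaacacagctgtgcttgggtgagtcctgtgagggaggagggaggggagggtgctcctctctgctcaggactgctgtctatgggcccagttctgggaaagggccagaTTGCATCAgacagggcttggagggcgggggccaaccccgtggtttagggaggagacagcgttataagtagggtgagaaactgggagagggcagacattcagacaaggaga
Asns: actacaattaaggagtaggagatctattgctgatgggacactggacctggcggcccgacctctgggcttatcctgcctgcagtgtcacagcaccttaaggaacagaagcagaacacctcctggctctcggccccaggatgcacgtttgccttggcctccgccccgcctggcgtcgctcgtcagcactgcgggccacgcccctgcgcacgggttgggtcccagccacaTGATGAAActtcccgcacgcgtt
Members with and without a fall held the elements. Of the 8 ER members with a window that were lower in the mean of the hairpins 4 held the ER stress element, as did 4 of the other 11. Of the 8 such Atf4-linked members 2 held TGATGNAA, as did 4 of the other 9.

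Atf4-linked genes were set against Rluc for each hairpin and for the mean of the 3 hairpins, and a gene was called higher or lower at a limma adjusted p below 0.05. Stc2 showed the largest fall of the 20, followed by the transporter Slc7a5, the factor Atf5, the regulator Nupr1 and the transporter Slc1a5, while Atf3 and Slc7a11 were higher and the feedback genes were not called. In the mean of the hairpins 2 of 20 were higher and 10 lower, beside 13.3% and 15% of all genes tested (28.3% in either direction). The median log2 difference of the 20 was -0.08, beside -0.000356 over all genes, and ran from -0.92 to 0.47. With Brg1sh_3232, 1 was higher and 7 lower, beside 9.59% and 11.3% of all genes (20.8% in either direction). With Brg1sh_3364, 2 were higher and 8 lower, beside 13.6% and 12.2% (25.7% in either direction). With Brg1sh_4935, 2 were higher and 8 lower, beside 9.79% and 12.3% (22.1% in either direction). The 3 comparisons share the Rluc arrays: 6 of the 20 genes were lower in all 3, 1 was higher in all 3, and 9 were called in none. The same count was not made over all genes, so these counts have no background and do not measure how alike the hairpins are. All 6 hairpin arrays lay on the same side of all 3 Rluc arrays for 10 of the 20 genes, beside 22.8% of all genes.

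**Figure D1:**
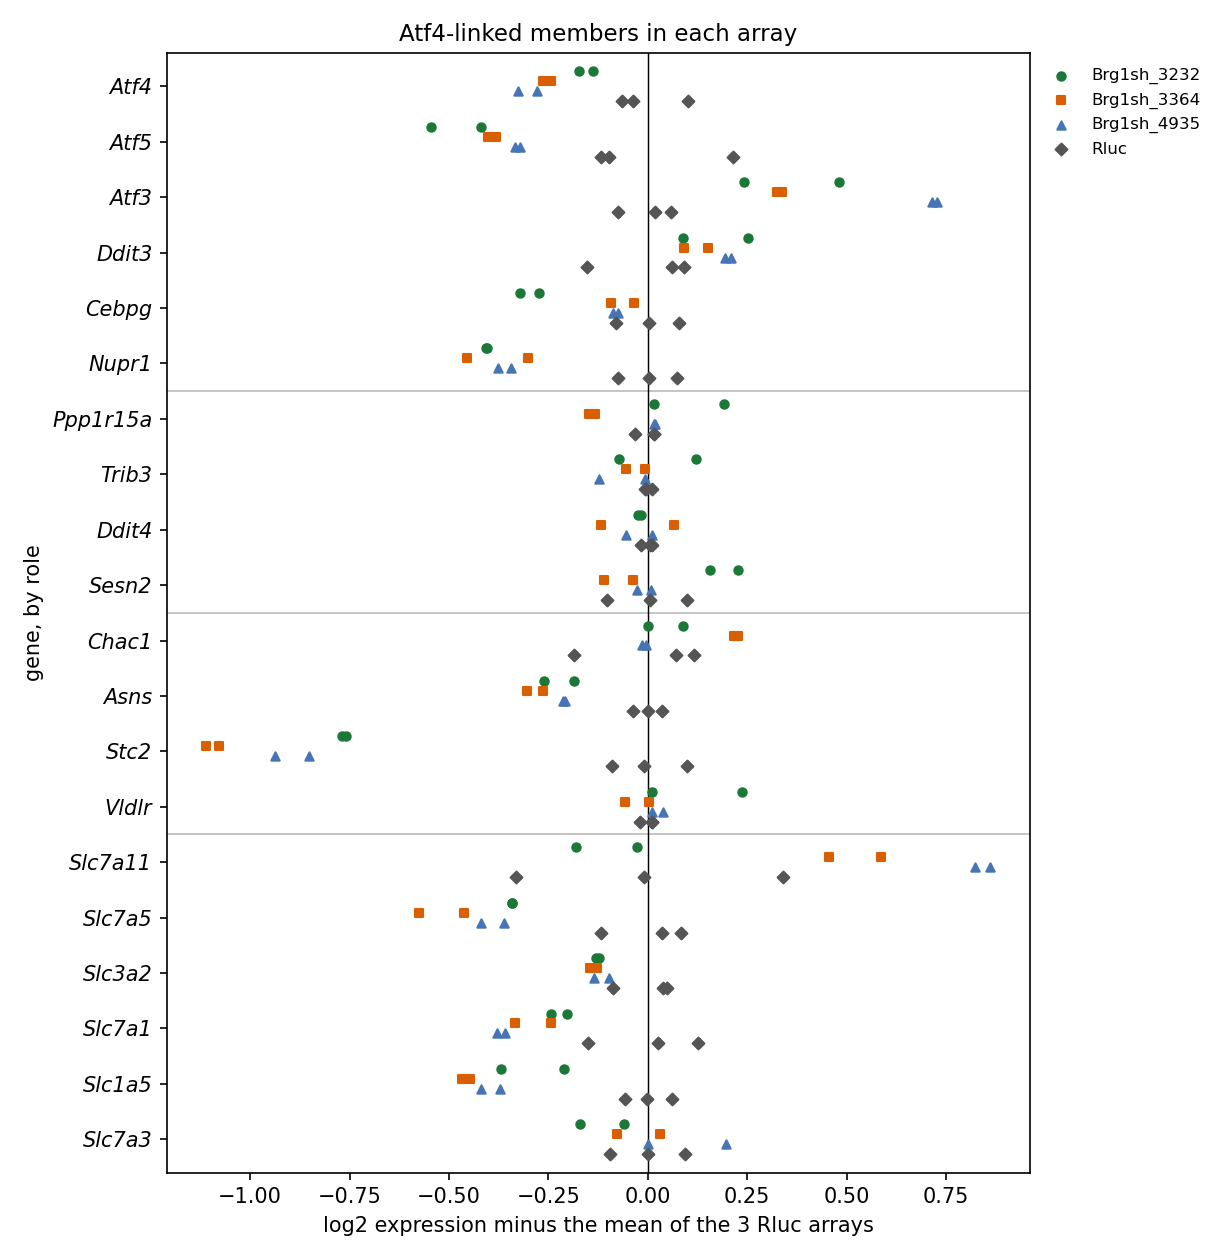
The 20 Atf4-linked members in each array, as log2 expression minus the mean of the 3 Rluc arrays (horizontal axis), 1 point per array and 1 row per gene, with lines between the roles (factors, feedback and growth brakes, enzymes and secreted or surface proteins, amino acid transporters). Stc2 lies far to the left in all 6 hairpin arrays, Atf3 to the right, and the feedback genes around 0.

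The 6 transcription factors and regulators divided by direction: 4 fell, 1 rose and Ddit3 was not called. Among all genes 15% were lower and 13.3% higher. Atf4, the central factor of the response, measured 10.41 and 10.37 with Brg1sh_3232, 10.28 and 10.30 with Brg1sh_3364 and 10.26 and 10.22 with Brg1sh_4935, against 10.64, 10.48 and 10.51 in the Rluc arrays. Every hairpin array was below every Rluc array, by little. The mean of the hairpins was lower by 0.24 on the log2 scale (log2 difference -0.24, SE 0.04, adjusted p = 0.00312 by limma), with -0.16 for Brg1sh_3232, which was not called (adjusted p = 0.0896), -0.25 for Brg1sh_3364 and -0.30 for Brg1sh_4935. The last pair of calls was lost without either Brg1sh_3364 array (0.0682 and 0.0532) and without Brg1sh_4935 replicate 2 (0.0502). With the 3 hairpin means taken as the replicates, the adjusted p for Atf4 was 0.052.

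Atf3, a factor of the same family that Atf4 induces, moved the other way. It measured 8.21 and 8.45 with Brg1sh_3232, 8.30 and 8.31 with Brg1sh_3364 and 8.68 and 8.70 with Brg1sh_4935, against 7.99, 7.90 and 8.03 in the Rluc arrays. The groups did not overlap, and the rise averaged 0.47 (SE 0.06, adjusted p = 0.000246). Nupr1, a small stress-induced chromatin protein, measured 7.63 and 7.63 with Brg1sh_3232, 7.58 and 7.73 with Brg1sh_3364 and 7.66 and 7.69 with Brg1sh_4935, against 8.04, 8.11 and 7.96 in the Rluc arrays. It fell in all 3 hairpins to much the same level, by 0.38 on average (SE 0.05, adjusted p = 0.000333).

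Ddit3 encodes CHOP, the factor linked to cell death under lasting ER stress. It measured 8.74 and 8.91 with Brg1sh_3232, 8.80 and 8.75 with Brg1sh_3364 and 8.85 and 8.86 with Brg1sh_4935, against 8.71, 8.75 and 8.50 in the Rluc arrays. The arrays overlapped and Ddit3 was not called (log2 difference 0.16, SE 0.06, adjusted p = 0.0828), except when genes below the median level were left out (0.0443). Atf5, a related factor, fell by 0.40 (SE 0.07, adjusted p = 0.00283). Its single-hairpin calls were lost in 2 of 17 alternatives for Brg1sh_3232, 3 for Brg1sh_3364 and 8 for Brg1sh_4935. Each was lost when only that hairpin and Rluc were fitted (limma adjusted p = 0.059, 0.0658 and 0.118). Cebpg, the C/EBP partner of Atf4, fell by 0.15 in the mean (adjusted p = 0.0288), a call that rested on Brg1sh_3232 (-0.30) and was lost without that hairpin (adjusted p = 0.331). It was also lost without Brg1sh_3232 replicate 2, Brg1sh_3364 replicate 2, either Brg1sh_4935 array or Rluc replicate 2 or 3 (0.0587 to 0.116).

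The feedback genes and growth brakes showed no call in the mean of the hairpins, beside 28.3% of all genes called in either direction. These are 4 genes, too few to set 0 apart from that share. Ppp1r15a (GADD34, which guides eIF2 dephosphorylation) differed by -0.01 (adjusted p = 0.951), Trib3 (a pseudokinase that restrains Atf4) by -0.02 (0.808), Ddit4 (an inhibitor of mTORC1) by -0.02 (0.796) and Sesn2 (a leucine sensor that restrains mTORC1) by 0.04 (0.691). SEs were 0.04 to 0.05. Between Brg1sh_3364 and Brg1sh_3232 the pairwise contrast called Sesn2 (-0.27, adjusted p = 0.0449) and Ppp1r15a (-0.24, adjusted p = 0.0401) as lower, while the F test over all 3 hairpins called neither (adjusted p = 0.0753 and 0.0747). Cebpg was higher in that pair, by 0.23 (adjusted p = 0.0428), also without a call by the F test (adjusted p = 0.0572).

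Stc2, a secreted glycoprotein induced by Atf4 that limits calcium entry into stressed cells, had the largest fall of all 42 members. It measured 8.95 and 8.96 with Brg1sh_3232, 8.61 and 8.64 with Brg1sh_3364 and 8.86 and 8.78 with Brg1sh_4935, against 9.63, 9.71 and 9.82 in the Rluc arrays. The groups lay well apart, and the mean of the hairpins was 1.89-fold lower (log2 difference -0.92, SE 0.05, adjusted p = 2.54e-06). Asns, asparagine synthetase and a standard reporter of Atf4 activity, measured 12.98 and 13.05 with Brg1sh_3232, 12.98 and 12.94 with Brg1sh_3364 and 13.03 and 13.03 with Brg1sh_4935, against 13.20, 13.28 and 13.24 in the Rluc arrays. It fell in each hairpin, by 0.24 on average (SE 0.04, adjusted p = 0.000943), with single-hairpin calls lost without Brg1sh_3232 replicate 1 (0.0561) or either Brg1sh_4935 array (0.0649 and 0.0598). Chac1, which degrades glutathione, and Vldlr, a lipoprotein receptor, were not called (0.09, adjusted p = 0.415, and 0.04, adjusted p = 0.659).

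Of the 6 amino acid transporters 4 fell and 1 rose, beside 15% lower and 13.3% higher among all genes. Slc7a5, the light chain of the carrier for leucine and other large neutral amino acids, measured 12.22 and 12.22 with Brg1sh_3232, 12.10 and 11.99 with Brg1sh_3364 and 12.20 and 12.15 with Brg1sh_4935, against 12.45, 12.60 and 12.65 in the Rluc arrays. Every hairpin array was below every Rluc array, and the fall averaged 0.42 (SE 0.05, adjusted p = 0.000306). Slc1a5, a carrier of glutamine, measured 11.48 and 11.64 with Brg1sh_3232, 11.38 and 11.40 with Brg1sh_3364 and 11.47 and 11.43 with Brg1sh_4935, against 11.79, 11.84 and 11.91 in the Rluc arrays. It fell in each hairpin, by 0.38 on average (SE 0.05, adjusted p = 0.000281), the Brg1sh_3232 call being lost without its replicate 1 (0.0594). Slc7a1, a carrier of arginine and lysine, fell by 0.29 (adjusted p = 0.00454). It was not called with Brg1sh_3232 (-0.22, adjusted p = 0.0695). Its Brg1sh_3364 call was lost in 6 of 17 alternatives and its Brg1sh_4935 call in 2 of 17. Slc3a2, the heavy chain that pairs with Slc7a5 and Slc7a11, fell by 0.13 in the mean (adjusted p = 0.0443) with no single hairpin called, and the call was lost with a further quantile normalization (0.073) and without any 1 array other than Rluc replicate 1 (0.0694 to 0.16).

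Slc7a11, which imports cystine for glutathione synthesis, differed from the other transporters. It measured 10.04 and 10.19 with Brg1sh_3232, 10.81 and 10.68 with Brg1sh_3364 and 11.08 and 11.04 with Brg1sh_4935, against 9.89, 10.21 and 10.56 in the Rluc arrays. Brg1sh_3232 lay within the Rluc range and the other hairpins above it. The difference was 0.84 with Brg1sh_4935 (adjusted p = 0.00453), 0.52 with Brg1sh_3364 (adjusted p = 0.0389) and -0.10 with Brg1sh_3232 (adjusted p = 0.734). The Brg1sh_3364 call too was lost without any 1 array but Rluc replicate 3 (0.0553 to 0.217). The rise in the mean, 0.42 (adjusted p = 0.0302), was lost when any 1 array but Rluc replicate 3 was left out (0.0531 to 0.0923). Slc7a3, another carrier of basic amino acids, sat at the 18.5 percentile of mean level and was not called (-0.01, adjusted p = 0.916).

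ER members were set against Rluc in the same fit. Lower calls were made for 7 of 11 chaperones and co-chaperones and 2 of 3 disulphide isomerases, with Pdia6 and Dnajb11 falling most, the sensor mRNA Atf6 was higher, and the 5 genes of ER-associated degradation were not called. In the mean of the hairpins 1 of 22 was higher and 10 lower, beside 13.3% and 15% of all genes. The median log2 difference of the 22 was -0.13, beside -0.000356 over all genes, and ran from -0.39 to 0.20. Brg1sh_3232 gave 2 higher and 7 lower (median -0.09), beside 9.59% and 11.3% of all genes. Brg1sh_3364 gave 0 higher and 11 lower (median -0.17), beside 13.6% and 12.2%. Brg1sh_4935 gave 1 higher and 8 lower (median -0.07), beside 9.79% and 12.3%. Of the 22 genes 4 were lower in all 3 hairpins, 0 were higher in all 3 and 8 were called in none, again with no such count over all genes. All hairpin arrays lay apart from all Rluc arrays for 8 of the 22, beside 22.8% of all genes. With each array centred on its median, 0 were higher and 12 lower in the mean.

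These genes are abundant, and abundant genes were called more often. Of the 4985 genes with the highest mean level, from 10.42 upward, 22.5% were higher and 28.5% lower in the mean of the hairpins. In either direction 51.1% of them were called, near the 50% of the 22 ER members. These brightest genes, a background chosen after the values were seen, included 21 of the 22 ER members, 10 of them lower, and 6 of the Atf4-linked members, 5 of them lower.

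**Figure D2:**
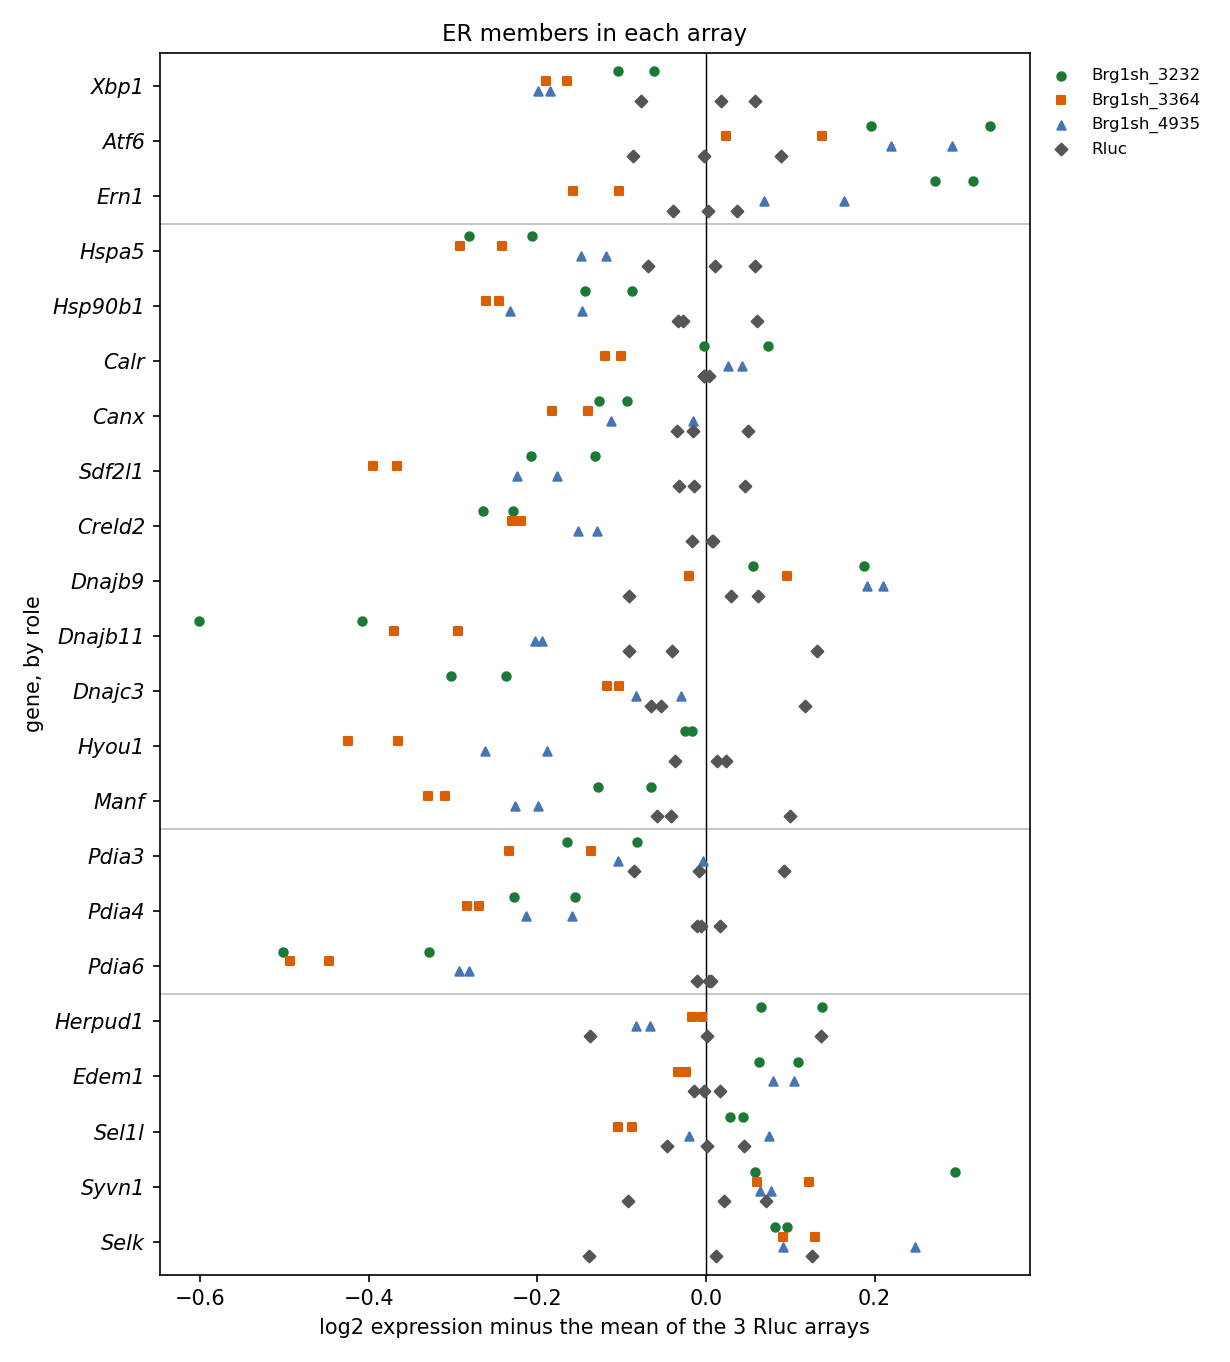
The 22 ER members in each array, as log2 expression minus the mean of the 3 Rluc arrays (horizontal axis), 1 point per array and 1 row per gene, with lines between the roles (sensors and factors, chaperones and co-chaperones, disulphide isomerases, ER-associated degradation). Pdia6 and Dnajb11 lie to the left in all 6 hairpin arrays, Hyou1 spreads by hairpin, and the hairpin arrays of the degradation genes overlap the Rluc arrays.

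The sensors and their factor did not move together. Xbp1, whose mRNA the sensor Ern1 splices, measured 13.04 and 13.08 with Brg1sh_3232, 12.96 and 12.98 with Brg1sh_3364 and 12.95 and 12.96 with Brg1sh_4935, against 13.16, 13.20 and 13.07 in the Rluc arrays. One Brg1sh_3232 array lay within the Rluc range, and that hairpin was not called (-0.08, adjusted p = 0.325). Xbp1 fell by 0.15 in the mean (SE 0.04, adjusted p = 0.0184), a call lost without Rluc replicate 1 (0.0612) or Rluc replicate 2 (0.0809), and without Brg1sh_3364 (0.0625) or Brg1sh_4935 (0.0775). Atf6, a membrane-bound sensor that is cleaved to a transcription factor, rose by 0.20 in the mean (SE 0.05, adjusted p = 0.0206). It was called with Brg1sh_3232 (0.27, adjusted p = 0.0247) and Brg1sh_4935 (0.26, adjusted p = 0.0272) but not with Brg1sh_3364 (0.08, adjusted p = 0.478). Centring each array on its median ended the call in the mean (0.0831), as did testing every probe set (0.0529). That call was also lost without Brg1sh_3232 (0.0602) or Brg1sh_4935 (0.0832). It was lost too without any of 4 single arrays (Brg1sh_3364 replicate 1, 0.0529, Brg1sh_4935 replicate 1, 0.0575, Rluc replicate 2, 0.0652, and Rluc replicate 3, 0.0907).

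Of the 11 chaperones and co-chaperones 7 fell and 0 rose, beside 15% lower and 13.3% higher among all genes, with a median log2 difference of -0.20. Hspa5 (BiP), the main ER chaperone, measured 13.12 and 13.05 with Brg1sh_3232, 13.09 and 13.04 with Brg1sh_3364 and 13.21 and 13.18 with Brg1sh_4935, against 13.26, 13.34 and 13.39 in the Rluc arrays. All hairpin arrays were below all Rluc arrays, and the mean was lower by 0.21 (log2 difference -0.21, SE 0.04, adjusted p = 0.00343), with Brg1sh_4935 alone not called (-0.13, adjusted p = 0.113). Dnajb11, a J-domain partner of Hspa5, measured 11.60 and 11.41 with Brg1sh_3232, 11.71 and 11.64 with Brg1sh_3364 and 11.81 and 11.81 with Brg1sh_4935, against 11.92, 11.97 and 12.14 in the Rluc arrays. It fell by 0.34 (SE 0.06, adjusted p = 0.00238), again without a call for Brg1sh_4935 (-0.20, adjusted p = 0.117). Single-hairpin calls were lost for Hspa5 without Brg1sh_3232 replicate 2 (0.0792) and for Dnajb11 without either Brg1sh_3364 array (0.0502 and 0.1).

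Sdf2l1, which works with Dnajb11 to keep client proteins soluble, measured 12.92 and 13.00 with Brg1sh_3232, 12.76 and 12.74 with Brg1sh_3364 and 12.91 and 12.95 with Brg1sh_4935, against 13.12, 13.18 and 13.10 in the Rluc arrays. It fell in each hairpin, by 0.25 on average (SE 0.04, adjusted p = 0.000898). Its Brg1sh_3232 call was lost without any 1 array but Rluc replicate 3 (0.051 to 0.171), and its Brg1sh_4935 call without either array of that hairpin (0.114 and 0.0541). Creld2, an ER protein of the stress response with isomerase activity, measured 12.02 and 11.98 with Brg1sh_3232, 12.03 and 12.02 with Brg1sh_3364 and 12.10 and 12.12 with Brg1sh_4935, against 12.26, 12.23 and 12.26 in the Rluc arrays. It fell in each hairpin too, by 0.20 on average (SE 0.03, adjusted p = 0.00117), but the Brg1sh_4935 call was lost without any 1 array other than those of Brg1sh_3232 (0.0507 to 0.172) and after a further quantile normalization (0.108). Hsp90b1 (GRP94), an ER member of the HSP90 family, fell by 0.19 (adjusted p = 0.00619), and Manf, a secreted cofactor of Hspa5, fell by 0.21 (adjusted p = 0.00597). Neither was called with Brg1sh_3232 (Hsp90b1 -0.12, adjusted p = 0.158, and Manf -0.10, adjusted p = 0.301). The Manf call in the mean was lost without Brg1sh_3364 (0.0632). With Brg1sh_4935 the Hsp90b1 call was lost in 4 of 17 alternatives and that of Manf in 5 of 17.

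The lectin chaperones of glycoproteins were not called in the mean of the hairpins, with Calr at -0.01 (adjusted p = 0.846) and Canx at -0.11 (adjusted p = 0.0611). Nor were the J-domain proteins Dnajb9 (0.12, adjusted p = 0.12), a repressor of Ern1, and Dnajc3 (-0.15, adjusted p = 0.0518), an inhibitor of eIF2 kinases. In that contrast Canx and Dnajc3 were each called lower in 5 of 20 alternatives, among them arrays centred on their medians (adjusted p = 0.0275 and 0.0256). With single hairpins, Canx was called lower with Brg1sh_3364 (-0.16, adjusted p = 0.0426), a call lost in 11 of 17 alternatives. Dnajc3 was called lower with Brg1sh_3232 (-0.27, adjusted p = 0.0144), a call lost in 2 of 17.

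Among the disulphide isomerases, which form and reshuffle disulphide bonds, 2 of 3 fell, beside 15% of all genes. Pdia6 measured 11.62 and 11.45 with Brg1sh_3232, 11.51 and 11.46 with Brg1sh_3364 and 11.67 and 11.66 with Brg1sh_4935, against 11.96, 11.96 and 11.94 in the Rluc arrays. Rluc arrays hardly differed among themselves, and every hairpin array was below them. Pdia6 fell by 0.39 (SE 0.04, adjusted p = 0.000166), the largest fall of the ER members. Pdia4 measured 12.98 and 12.91 with Brg1sh_3232, 12.87 and 12.85 with Brg1sh_3364 and 12.97 and 12.92 with Brg1sh_4935, against 13.13, 13.12 and 13.15 in the Rluc arrays. It fell in each hairpin, by 0.22 on average (SE 0.03, adjusted p = 0.00131), while its second, dimmer probe set was not called (-0.17, adjusted p = 0.349). The Pdia4 call was lost for Brg1sh_3232 without its replicate 2 (0.0921) and for Brg1sh_4935 without its replicate 2 (0.116). With the mean of both Pdia4 probe sets it was lost for Brg1sh_3364 (0.0623) and Brg1sh_4935 (0.186). Pdia3 was not called (-0.12, adjusted p = 0.12).

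Genes of ER-associated degradation, which draws misfolded proteins out to the proteasome, were called for 0 of 5 in the mean of the hairpins. Among all genes 28.3% were called in either direction, and 5 genes are too few to set 0 apart from that share. Herpud1 differed by 0.01 (adjusted p = 0.966), Edem1 by 0.05 (0.329), Sel1l by -0.01 (0.89), Syvn1 by 0.11 (0.213) and Selk by 0.12 (0.188). SEs were 0.03 to 0.06, against 0.04 for Pdia6, which fell by 0.39. Syvn1 was called only without Brg1sh_3232 replicate 1 (0.0488).

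Hairpins were compared with each other by a moderated F test, which called 3 Atf4-linked members (Slc7a11, Atf3 and Stc2) and 2 ER members (Ern1 and Hyou1). Together these made up 11.9% of the members, near the 10.5% of all genes. Ern1, the sensor kinase and nuclease that splices Xbp1, measured 11.70 and 11.74 with Brg1sh_3232, 11.27 and 11.32 with Brg1sh_3364 and 11.59 and 11.49 with Brg1sh_4935, against 11.43, 11.46 and 11.39 in the Rluc arrays. It was above Rluc with Brg1sh_3232 (0.29, adjusted p = 0.00333) and stood at -0.13 with Brg1sh_3364 (adjusted p = 0.093) and 0.12 with Brg1sh_4935 (adjusted p = 0.149), and its mean was not called (0.09, adjusted p = 0.115). Hyou1, a large ER chaperone and exchange factor for Hspa5, measured 11.39 and 11.39 with Brg1sh_3232, 11.04 and 10.99 with Brg1sh_3364 and 11.22 and 11.15 with Brg1sh_4935, against 11.42, 11.43 and 11.37 in the Rluc arrays. Brg1sh_3232 overlapped Rluc (-0.02, adjusted p = 0.833), while Brg1sh_3364 (-0.39, adjusted p = 0.000312) and Brg1sh_4935 (-0.23, adjusted p = 0.00741) fell. Its fall in the mean, 0.21 (SE 0.04, adjusted p = 0.00187), was lost without Brg1sh_3364 (0.0563), and the Brg1sh_4935 call without its replicate 2 (0.0738).

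In pairs, most calls involved Brg1sh_3364. Against Brg1sh_3232 it gave 1 higher and 3 lower Atf4-linked members and 0 higher and 3 lower ER members, beside 9.66% of all genes in either direction. Those ER members were Ern1 (-0.42, SE 0.05, adjusted p = 0.00222), Hyou1 (-0.37, SE 0.05, adjusted p = 0.00287) and Sdf2l1 (-0.21, SE 0.05, adjusted p = 0.0376), and Stc2 was the third Atf4-linked gene (-0.33, SE 0.07, adjusted p = 0.016). The F test did not call Sdf2l1 (adjusted p = 0.0563). Against Brg1sh_4935 it gave Atf3 (-0.39, SE 0.08, adjusted p = 0.0179) and Ern1 (-0.25, SE 0.05, adjusted p = 0.0274) as lower and none as higher, beside 7.61% of all genes. Brg1sh_4935 against Brg1sh_3232 gave Slc7a11 alone, higher by 0.95 (SE 0.17, adjusted p = 0.0454), beside 1.02% of all genes.

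**Figure D3:**
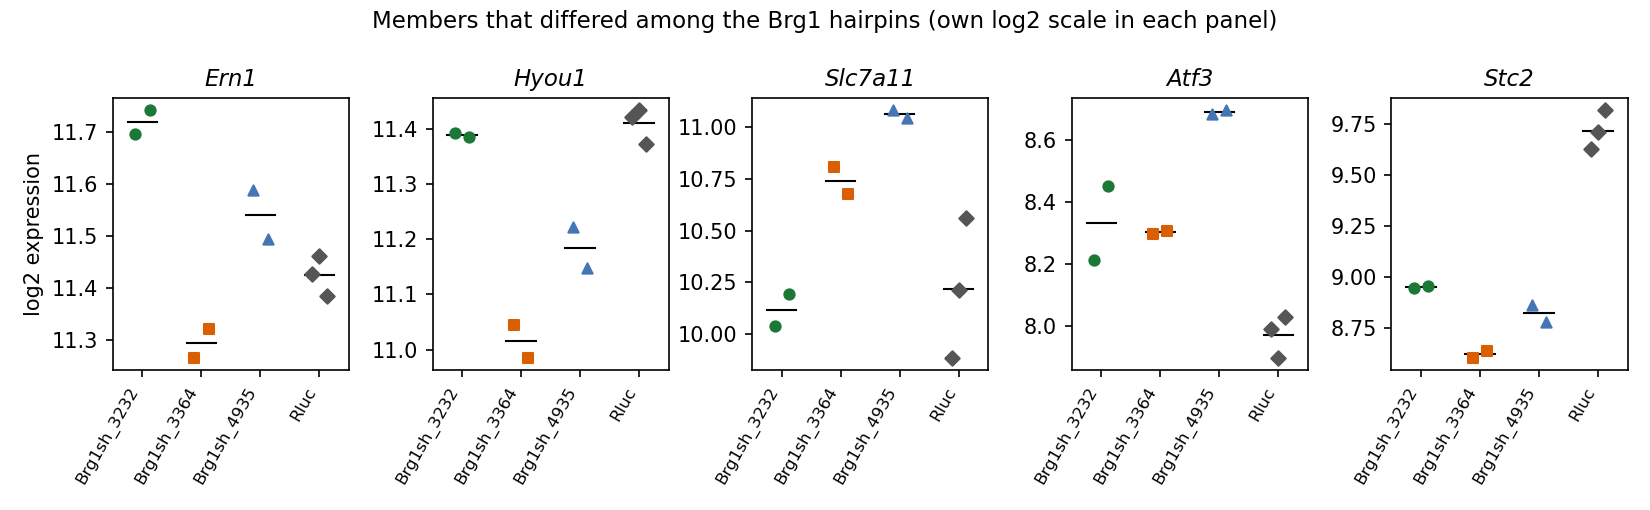
Log2 expression of the 5 members called by the F test among hairpins, 1 panel per gene with its own scale, 1 point per array and a line at each group mean. Ern1 is highest with Brg1sh_3232 and Hyou1 lowest with Brg1sh_3364, Slc7a11 and Atf3 are highest with Brg1sh_4935, and Stc2 is below Rluc in every hairpin.

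Other genes of the same pathways were counted in the mean of the hairpins from lists beside the members, to be read against the 13.3% of all genes that were higher and the 15% that were lower. Of 13 measured genes for eIF2, its kinases and its exchange factor eIF2B, 1 was higher and 5 lower (median -0.10). Eif2b1, a subunit of eIF2B, averaged 10.38 ± 0.09 in the 6 hairpin arrays and 10.84 ± 0.11 in the 3 Rluc arrays and fell by 0.46 (adjusted p = 0.000651). Eif2s2, the beta subunit of eIF2, fell by 0.37 (adjusted p = 0.00112), and Eif2b5, the catalytic subunit of eIF2B, fell by 0.33 (adjusted p = 0.000833).

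Of 21 other amino acid genes linked to Atf4, 0 were higher and 13 lower (median -0.26), beside 13.3% and 15% of all genes. Phgdh, the first enzyme of serine synthesis, averaged 9.55 ± 0.28 in the hairpin arrays and 10.75 ± 0.10 in the Rluc arrays and fell by 1.20 (SE 0.05, adjusted p = 7.4e-07), more than any of the 42 members. Psat1, the next enzyme of that pathway, fell by 0.57 (adjusted p = 4.48e-06), and Gpt2, which makes alanine, fell by 0.69 (adjusted p = 1.78e-05). Of 11 tRNA synthetases linked to Atf4, 0 were higher and 9 lower (median -0.31), beside the same shares, with Gars (-0.40, adjusted p = 3.51e-05), Tars (-0.51, adjusted p = 0.000166) and Eprs (-0.36, adjusted p = 0.000239) in front.

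Among ER genes outside the members, 9 of 17 for the translocon and signal peptidase were lower and 1 was higher (median -0.12), beside 15% and 13.3% of all genes. Sec62, which helps proteins into the ER, fell by 0.23 (adjusted p = 0.00194) and so did Spcs3 of the signal peptidase (adjusted p = 0.00335), whereas Sec11c, a catalytic subunit of the signal peptidase, rose by 0.27 (adjusted p = 0.0031). Of 17 other folding and glycan enzymes 0 were higher and 8 lower (median -0.16), beside 13.3% and 15%. Ero1b (Ero1lb on the array), an oxidase that recharges disulphide isomerases, fell by 0.40 (adjusted p = 0.000141). Txndc5, an isomerase-like thioredoxin, fell by 0.31 (adjusted p = 0.000438) and Fkbp11, a prolyl isomerase, by 0.32 (adjusted p = 0.00102). The hairpins differed for the 17 folding and glycan enzymes. With Brg1sh_3232, 0 were higher and 3 lower (median -0.04), with Brg1sh_3364 1 and 9, and with Brg1sh_4935 0 and 7. Among all genes 9.59%, 13.6% and 9.79% were higher and 11.3%, 12.2% and 12.3% lower. The F test called 4 of the 17, beside 10.5% of all genes.

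Of 13 other genes of ER-associated degradation 2 were higher and 2 lower (median -0.02), a share near the 28.3% of all genes called in either direction. Os9, a lectin that hands glycoproteins to the degradation complex, rose by 0.19 (adjusted p = 0.00279) and Derl3, a channel component, by 0.20 (adjusted p = 0.00424), while Ube2g2, a ubiquitin-conjugating enzyme, fell by 0.29 (adjusted p = 0.00119). Of 6 other ER stress transducers 1 was higher and 1 lower, likewise near the share of all genes: Creb3, a membrane-bound factor, averaged 11.09 ± 0.07 in the hairpin arrays and 10.58 ± 0.06 in the Rluc arrays and rose by 0.51 (adjusted p = 5.18e-05), and Creb3l2 fell by 0.26 (adjusted p = 0.0214). Traf2, an adaptor of Ern1, was not called (0.05, adjusted p = 0.404).

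**Figure D4:**
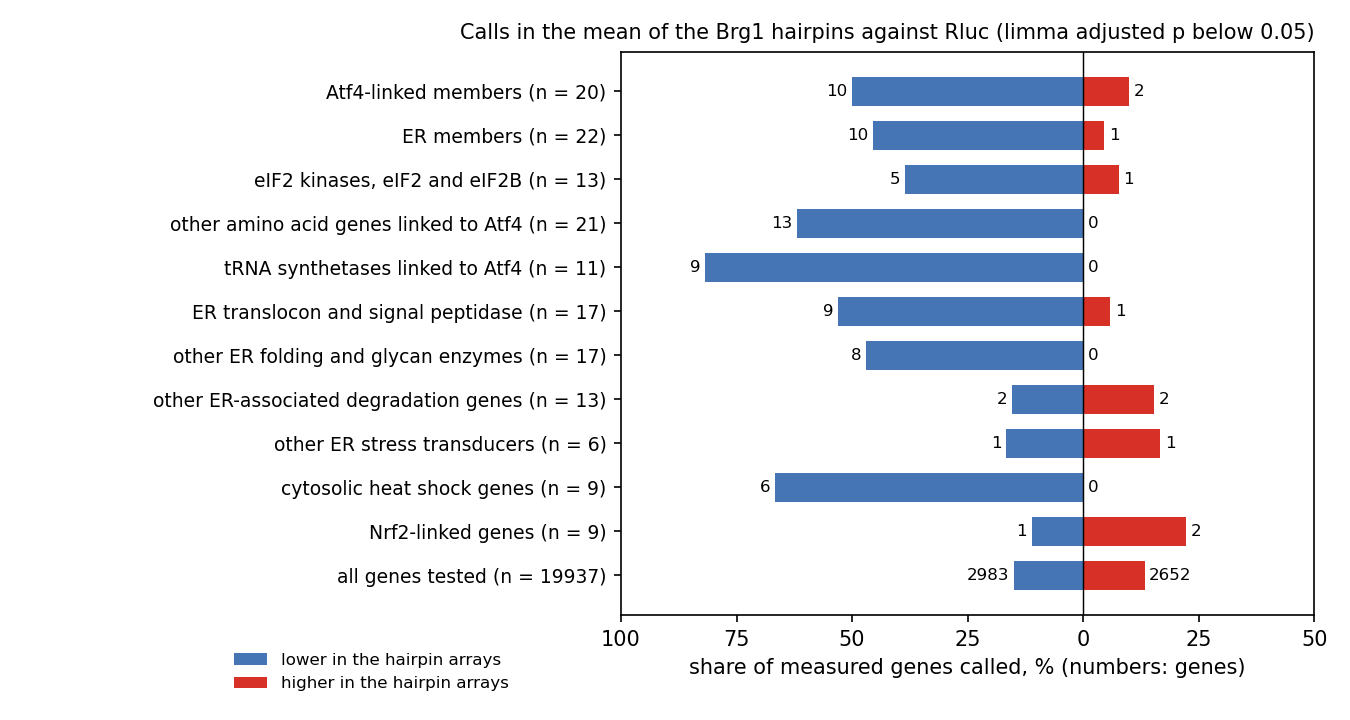
Share of measured genes called lower (left of 0, blue) and higher (right of 0, red) in the mean of the 3 hairpins against Rluc at a limma adjusted p below 0.05, in percent, for the Atf4-linked and ER members, the lists beside them and all genes tested, with gene counts at the bars. Lower calls outnumber higher ones for both member groups, and the tRNA synthetases have 9 of 11 genes lower, beside 15% of all genes.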

How the data were processed

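RNA from 9 samples was hybridised to Affymetrix whole-transcript mouse arrays. The authors deposited 1 log2 value per probe set and array. Per the submitters' processing notes these came from RMA, whose version is not given in the sources used here. RMA equalises array distributions, so a change shared by most genes would be removed. Array medians were 7.39 to 7.49, no value was missing, and 0 sample columns were left unused. Scanner files were not used here, so slide and scan date were not tested, and the number of arrays limits precision.

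Names came from the platform annotation, in which 21640 probe sets had 1 symbol, 1321 several and 11799 none. Each gene was represented by its probe set with the highest mean. A single limma fit (version 3.58.1, R 4.3.3) gave the means of the 4 groups (lmFit, eBayes, 5 residual and 3.85 prior degrees of freedom). Tests were two-sided, with Benjamini-Hochberg adjustment over all 19937 genes. Levels are mean ± SD and differences carry the SE of the fit.

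Values per array are given for Atf4, Ddit3, Xbp1 and Hspa5, for the 6 called members of each group with the smallest p in the mean of the hairpins, and for the members called by the F test. Up to 3 genes per other list are named by the same p. The members and lists were chosen with earlier results of these data known. Same-numbered arrays deviated together little (correlations -0.07 to 0.25), the most for Brg1sh_3232 with Rluc (0.19 and 0.25), and arrays were not paired. In a group of 2 arrays the deviations mirror each other, so this check has little power. Alternatives covered scaling, filters, probe sets, the eBayes prior, thresholds, left-out arrays and hairpins, and the replicate block.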

Additional observations from a re-analysis of the deposited data

Results flagged for a closer look

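The F test among the 3 hairpins called 5 of the 42 members, a difference between hairpins under the same contrast against Rluc. That share, 11.9%, was near the 10.5% of all genes called by the same test. Its adjusted p was 0.00453 for Ern1 and 0.00593 for Hyou1, and both remained called in all 16 alternatives with an F test. For Slc7a11 it was 0.0207, and the call was lost without any single hairpin array (0.0667 to 0.127). For Atf3 it was 0.0217, and the call was lost without either array of Brg1sh_3364 (0.0901 and 0.0776) or of Brg1sh_4935 (0.122 and 0.13). For Stc2 it was 0.0317, and the call was lost without any single hairpin array (0.0659 to 0.171) or without Rluc replicate 2 (0.0548). Groups of 2 and 3 arrays are too small to look for single outlying arrays.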

How the results depend on the processing

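For the 23 members called in the mean of the hairpins, with Ddit3 and Ern1, the alternatives gave 524 values in that contrast. Of these, 458 kept their status as called or not called, 64 lost the call and 2 gained it. In 0 cases did the sign change with a call in either setting. Sign changes of values called in neither setting were not counted. Other members, the lists beside them and single-hairpin calls were outside this count. Among those other members, Canx and Dnajc3 each gained a call in the mean in 5 of 20 alternatives, and Syvn1 in 1. Members called (higher and lower together) moved by over 1.5 times in these cases, and the cause was not tested. Atf4-linked members numbered 5 for Brg1sh_3232 when only that hairpin and Rluc were fitted (8 otherwise), and 6 for Brg1sh_3364 at adjusted p below 0.01 (10 otherwise). They numbered 7 in the mean with hairpin means as replicates (1 higher, 6 lower), a setting with fewer samples. The F test called 5 of them after a further quantile normalization, 6 with dim genes left out, 0 with every row tested and 0 at adjusted p below 0.01, instead of 3. ER members numbered 4 for Brg1sh_3232 at adjusted p below 0.01 (9 otherwise), and for Brg1sh_4935 4 with every row tested and 2 at adjusted p below 0.01 (9 otherwise). They numbered 5 in the mean with hairpin means as replicates, and 5 instead of 2 in the F test with a trended robust eBayes. Leaving out 1 array gave 5 to 10 Atf4-linked calls for Brg1sh_3364, 6 to 11 for Brg1sh_4935 and 0 to 6 in the F test, and 5 to 8 ER calls for Brg1sh_3232 and 1 to 9 for Brg1sh_4935, the 1 without Brg1sh_4935 replicate 2. Calls lost with hairpin means as replicates were those of Atf4 (0.052), Cebpg (0.291), Slc7a11 (0.403), Slc3a2 (0.15), Slc7a1 (0.055), Xbp1 (0.124), Atf6 (0.121), Hsp90b1 (0.0609), Dnajb11 (0.0569), Hyou1 (0.201) and Manf (0.116). Over all genes, 47.1% of calls in the mean were higher, but 36.5% under median centring (median gene -0.04) and 45.4% after quantile normalization again (-0.03). With the replicate block, 10 Atf4-linked and 11 ER members were called in the mean, Smarca4 stood at -1.01, and Cebpg (0.15) and Slc3a2 (0.196) lost their calls. Only Rluc had a replicate 3, so the block gave that array a term of its own. The differences in this setting therefore equal those without Rluc replicate 3, which limits it as a check of pairing. Leaving out genes below the median level removes the dimmest members from the test. Without 1 hairpin array, its lone partner is assumed to vary like the other groups.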

Other observations

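Cytosolic heat shock genes, a stress response outside the ER, were mostly lower in the mean of the hairpins: 6 of 9 measured genes were lower and 0 higher (median log2 difference -0.13), beside 15% and 13.3% of all genes. Hsp90aa1, the inducible cytosolic HSP90, averaged 12.71 ± 0.05 in the 6 hairpin arrays and 13.02 ± 0.06 in the 3 Rluc arrays, and fell by 0.31 (adjusted p = 0.000269 by limma). Hsph1, a large HSP70 relative, fell by 0.66 (adjusted p = 0.000639) and Dnaja1, a J-domain partner of HSP70, fell by 0.24 (adjusted p = 0.00594).

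Genes linked to Nrf2, the oxidative stress factor, were called for 3 of 9, 2 higher and 1 lower (median 0.01), near the 28.3% of all genes called in either direction. Hmox1, which degrades haem, averaged 10.97 ± 0.24 in the hairpin arrays and 10.46 ± 0.06 in the Rluc arrays and rose by 0.51 (adjusted p = 0.000189). Srxn1, which repairs peroxiredoxins, rose by 0.63 (adjusted p = 0.000469), and Txnrd1, a thioredoxin reductase, fell by 0.23 (adjusted p = 0.0227).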
